A study of Mus musculus with 30 samples.

Results

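The mRNAs of 51 genes that write or erase histone methylation or remove histone acetylation were followed in spermatogonial stem cell (SSC) lines of the mouse. The genes were chosen by symbol alone: every Kdm, Kmt, Setd, Setdb, Hdac and Sirt gene with a number in the RNA-seq or half-life tables was taken, apart from one Y-linked gene. They make up 51 of the 14558 genes in these tables. An RNA level was given for 48 of them (of 13904 genes), an mRNA half-life for 29 (of 5806 transcripts) and both for 26 (of 5152).

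NANOS2 is an RNA-binding protein of undifferentiated male germ cells, and the study asked which mRNAs it binds and whether it changes their decay. SSC lines were derived from testes of postnatal day 7 males of a mixed C57BL/6 and DBA/2J background and grown on embryonic fibroblast feeders, which were removed before RNA was isolated. Line 4 was heterozygous (*Nanos2*TAG/+) and line 5 homozygous (*Nanos2*TAG/TAG) for a *Nanos2* allele that carries an N-terminal epitope and EGFP tag at the endogenous locus, so that neither line lacked NANOS2 and neither was untagged. Total RNA was sequenced after removal of ribosomal RNA, in 1 library per line, and half-lives came from SLAM-seq, in which RNA was labelled with 4-thiouridine and its loss followed over chase times of 0, 30, 60, 120, 540 and 1440 min, in 12 libraries per line. RNA-seq libraries were made from RNA extracted with QIAzol in the *Nanos2*TAG/+ line and with Trizol in the *Nanos2*TAG/TAG line. Genotype, line and extraction reagent therefore cannot be told apart in any difference of RNA level, and genotype and line cannot be told apart in any difference of half-life. The 4 CRAC libraries (UV crosslinking followed by sequencing of the RNA bound to NANOS2) were not used here.

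RNA levels are in FPKM, which are reads scaled to gene length and to library depth. Whole reads could be recovered for all 13875 genes with a known length, and they summed to 10933369 (*Nanos2*TAG/+) and 11631682 (*Nanos2*TAG/TAG). With 1 library per line there is no replicate error, and the 95% intervals given for FPKM ratios (Clopper-Pearson) cover counting error only. Each half-life is 1 fitted value per line without an error. No difference between the lines was therefore tested. The genotype of each column was read from the letters of its name, which no label spells out. In all pairs of values below, the *Nanos2*TAG/+ line is given first. All 10 markers of undifferentiated spermatogonia on the list used were detected, with a summed FPKM of 677 and 1136. Of these, 5 were higher in the *Nanos2*TAG/TAG library, among them *Bcl6b* (FPKM 23.1 and 225), *Etv5* (FPKM 46 and 178) and *Ret* (FPKM 73.2 and 181), and the other 5, with *Zbtb16* and *Nanos2* itself, were lower. Of 4 germ cell markers, 3 had an FPKM and summed to 383 and 370, and 4 markers of differentiating spermatogonia and meiosis to 64.5 and 52.9, with *Sycp3* at FPKM 4.59 and 0.632. Of 10 fibroblast markers, 9 were found after removal of feeders and summed to 319 and 387, of which *Fn1* made up 254 and 280.1, and to 65.4 and 107 without *Fn1*. Of the 9, 8 were higher in the *Nanos2*TAG/TAG library, where 7028 of all 13904 genes were higher. *Pdgfrb* was at FPKM 0.66 and 6.75 and *Col1a1* at FPKM 25 and 43.9. Of 5 Sertoli and Leydig cell markers, 3 were found and summed to 9.33 and 25.3, of which *Wt1* made up 2.51 and 19.6. *Sox9* was at FPKM 2.19 and 4.49, and *Star*, the 1 marker that was lower, at FPKM 4.62 and 1.2. The part of these cells in the differences below was not tested, and in bulk RNA fewer cells of a type and less RNA per cell cannot be told apart.

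Methyltransferases of the KMT and SETD families place methyl groups on lysines of histone tails, and lysine demethylases (KDM) remove them. Methylation of H3K4 marks promoters and enhancers of active genes, H3K36 methylation follows transcribed gene bodies, and methylation of H3K9, H3K27 and H4K20 is linked to silent or compact chromatin. Deacetylases fall into the zinc-dependent HDAC classes and the NAD-dependent sirtuins, some of which act on proteins in the cytoplasm or in mitochondria. In male germ cells, these enzymes are known to take part in the silencing of retrotransposons, in stem cell maintenance and in the passage through meiosis.

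The chromatin enzymes were expressed above the typical gene in both lines. Their median FPKM was 31.6 and 29.7, against 10.2 and 10.5 over all genes. The values ran from 0.505 to 207 and from 0.779 to 255, and the ranks of the 48 genes were alike in both libraries (Spearman's rho across genes 0.967, against 0.927 over all 13904 genes; genes are not independent replicates). The 15 methyltransferases had a median of 53 and 74.2, the 16 demethylases 26 and 24.8, the 10 HDAC genes 29.5 and 27.8 and the 7 sirtuins 17.3 and 11.1. The deposited FPKM values use the mean length of all annotated transcripts of a gene, and these genes have many short annotated transcripts. When the same reads were divided by the length of the principal coding transcript, the medians were 17.8 and 18, against 7.11 and 7.19 over 12515 genes. The order of levels between genes thus depends on the length used, whereas the ratio of a gene between the lines does not.

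**Figure D1:**
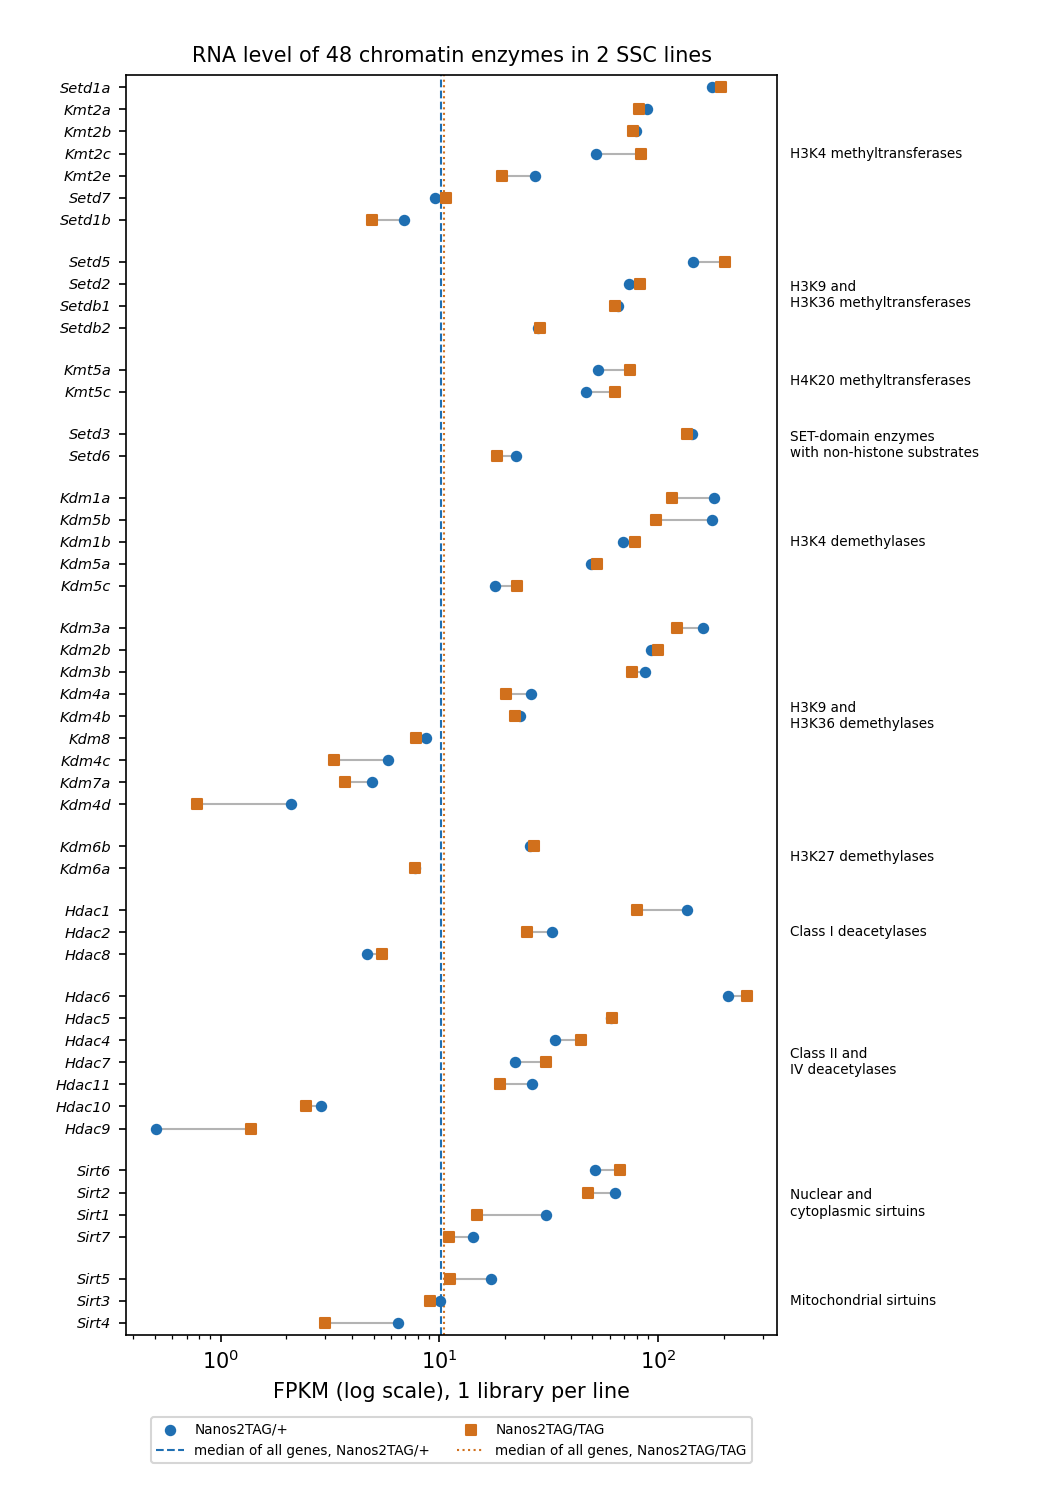
RNA level (FPKM, log scale) of the 48 enzymes in the *Nanos2*TAG/+ (circles) and *Nanos2*TAG/TAG (squares) libraries, by class; each point is 1 library and the vertical lines are the medians of all genes (10.2 and 10.5). *Hdac6* is the highest of all (207 and 255), and only *Kdm4d* and *Hdac9* fall below 1 in either library.

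Among the writers of H3K4 methylation, *Setd1a*, the catalytic subunit of a COMPASS complex that trimethylates H3K4, was the highest, at FPKM 175 and 193. Its sister gene *Setd1b* was the lowest, at FPKM 6.9 and 4.94. *Kmt2a* and *Kmt2b*, the MLL enzymes that act at promoters, were close to each other in both libraries, at FPKM 88.6 and 82 for *Kmt2a* and FPKM 78.8 and 76.9 for *Kmt2b*. *Kmt2c*, which monomethylates H3K4 at enhancers, was at FPKM 52.1 and 83.1, the largest ratio above 1 of any enzyme with a mean FPKM of at least 1, 1.6-fold (95% counting interval 1.53 to 1.67). Its sister *Kmt2d* had no FPKM row and its RNA level was not analysed here. Of the 7 genes of this class with an FPKM, 3 were higher and 4 lower in the *Nanos2*TAG/TAG library, where 7028 of all 13904 genes were higher. The 4 include *Kmt2e*, at FPKM 27.3 and 19.3, an MLL family member counted in this class whose activity as a writer was not examined.

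*Setd5*, a SET-domain protein linked to H3K36 methylation, was the highest of the H3K9 and H3K36 methyltransferases, at FPKM 145 and 202, a ratio of 1.39-fold (95% counting interval 1.35 to 1.44). *Setd2*, the main H3K36 trimethylase, was at FPKM 73.2 and 82.4. *Setdb1*, which trimethylates H3K9 and silences retroelements, differed little between the libraries, at FPKM 65.4 and 63.2, and so did its relative *Setdb2*, at FPKM 28.3 and 28.8. The counting intervals of both ratios include 1 (0.915 to 1.02 for *Setdb1* and 0.906 to 1.15 for *Setdb2*). Both measured writers of H4K20 methylation were higher in the *Nanos2*TAG/TAG library beyond counting error, as were 34.8% of all genes. *Kmt5a*, the H4K20 monomethylase, was at FPKM 53 and 74.2, a ratio of 1.4-fold (1.27 to 1.54). *Kmt5c*, which adds further methyl groups, was at FPKM 46.8 and 63.7, a ratio of 1.36-fold (1.22 to 1.52). The enzymes with non-histone substrates were *Setd3*, an actin histidine methyltransferase, at FPKM 143 and 135, and *Setd6*, at FPKM 22.4 and 18.4.

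The H3K4 demethylases fell into a pair with lower and a trio with higher values in the *Nanos2*TAG/TAG library, where 7028 of all 13904 genes were higher. *Kdm1a* (LSD1), the flavin-dependent demethylase of the CoREST complex, was at FPKM 181 and 116, 1.56-fold (95% counting interval 1.47 to 1.65) lower. *Kdm5b*, which removes H3K4 trimethylation, was at FPKM 176 and 97.9, 1.79-fold (95% counting interval 1.73 to 1.86) lower. Its sisters were not lower, with *Kdm5a* at FPKM 49.5 and 52.6 and X-linked *Kdm5c* at FPKM 17.9 and 22.5, and neither was *Kdm1b*, at FPKM 68.9 and 77.9. *Kdm5a*, with a counting interval of 0.993 to 1.14 for its ratio, did not differ beyond counting error.

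Of the 9 demethylases of H3K9 and H3K36 with an FPKM, 8 were lower in the *Nanos2*TAG/TAG library (6876 of all 13904 genes were not higher), with a median log2 difference of -0.37, against -0.0025 over all 12546 genes with a mean FPKM of at least 1. *Kdm3a*, which removes mono- and dimethylation of H3K9 and is needed for spermiogenesis, was the highest, at FPKM 160.1 and 122, 1.31-fold (95% counting interval 1.247 to 1.38) lower. *Kdm4c*, at FPKM 5.84 and 3.29, was 1.77-fold (1.33 to 2.39) lower, and *Kdm4d*, at FPKM 2.1 and 0.779, was 2.69-fold (1.61 to 4.63) lower. These low values rest on few reads, 127 and 77 reads for *Kdm4c* and 55 and 22 reads for *Kdm4d*. For *Kdm4b* and *Kdm8* the interval includes 1 (0.839 to 1.06 and 0.708 to 1.15). The exception was *Kdm2b*, an H3K36 demethylase that also recruits Polycomb proteins to CpG islands, at FPKM 92.7 and 99.4. Both H3K27 demethylases were near equal in the libraries, with *Kdm6a* at FPKM 7.71 and 7.71 and *Kdm6b* at FPKM 25.9 and 27.2.

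Of the 3 class I deacetylases measured, 2 were lower in the *Nanos2*TAG/TAG library. *Hdac1*, the highest class I enzyme, was at FPKM 136 and 80.0, 1.7-fold (95% counting interval 1.56 to 1.85) lower, and its partner *Hdac2* in the NuRD and SIN3 complexes was at FPKM 32.6 and 25, 1.3-fold (1.15 to 1.47) lower. X-linked *Hdac8* was at FPKM 4.67 and 5.45, with an interval of 0.858 to 1.59 for the ratio. *Hdac3* was not analysed here. Of the 7 class II and IV enzymes, 5 were higher in the *Nanos2*TAG/TAG library, where 7028 of all 13904 genes were higher. The other 2 were *Hdac11*, the class IV enzyme, at FPKM 26.4 and 19, 1.39-fold (1.16 to 1.67) lower, and *Hdac10*, a polyamine deacetylase, at FPKM 2.88 and 2.47, with an interval of 0.594 to 1.24 for the ratio. *Hdac6*, the X-linked deacetylase of tubulin, had the highest FPKM of all the enzymes, 207 and 255, also on the length of its principal transcript (109.5 and 135). The class IIa genes *Hdac4* and *Hdac7* were at FPKM 33.9 and 44.2 for *Hdac4* and FPKM 22 and 30.6 for *Hdac7*, whereas *Hdac5* was at FPKM 60.7 and 61.4, with an interval of 0.934 to 1.1 for the ratio. *Hdac9* was the lowest of all in the *Nanos2*TAG/+ library, at 0.505 against 1.38, and this ratio of 2.74 stands on 18 and 53 reads, with an interval of 1.58 to 4.96.

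Of 7 sirtuins, 6 were lower in the *Nanos2*TAG/TAG library, where 6876 of all 13904 genes were not higher. Beyond counting error 5 of the 7 were lower, against 33.6% of all genes. *Sirt1*, a nuclear deacetylase, was at FPKM 30.6 and 14.8, 2.06-fold (95% counting interval 1.85 to 2.3) lower on 977 and 510 reads, and *Sirt2*, a mainly cytoplasmic deacetylase, was at FPKM 63.2 and 47.6, 1.33-fold (1.2 to 1.47) lower. All 3 mitochondrial sirtuins were lower, with *Sirt5* at FPKM 17.3 and 11.1 and *Sirt4*, on 74 and 37 reads, at FPKM 6.44 and 2.99, 2.15-fold (1.43 to 3.29) lower. The interval for *Sirt3* includes 1 (0.711 to 1.14). *Sirt6*, which acts on chromatin, was the exception at FPKM 51.5 and 66.8, a ratio of 1.3-fold (1.18 to 1.43), and *Sirt7*, which is enriched in nucleoli, was at FPKM 14.2 and 11.

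Large differences in RNA level were few. None of 47 enzymes with a mean FPKM of at least 1 was 2-fold or more higher in the *Nanos2*TAG/TAG library, against 11.7% of all genes, and 3 of 47 were 2-fold or more lower (*Kdm4d*, *Sirt1* and *Sirt4*), against 8.67%. The shares over all genes include many genes of low level. At a mean FPKM of at least 5 they were 6.77% higher and 5.65% lower, beside 0 and 1 of 42 enzymes. All these calls were made on log2(FPKM + 0.1), which understates the difference of low genes. With a pseudocount of 1 in place of 0.1, none of *Kdm4d*, *Sirt1* and *Sirt4* passed. Beyond counting error, 14 of 48 enzymes were higher, against 34.8% of all genes, and 20 of 48 were lower, against 33.6%. The other 14 could not be separated at this depth. All 48 enzymes fell as 20 higher and 28 lower, whereas all genes split into 7028 higher and 6876 not higher.

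**Figure D2:**
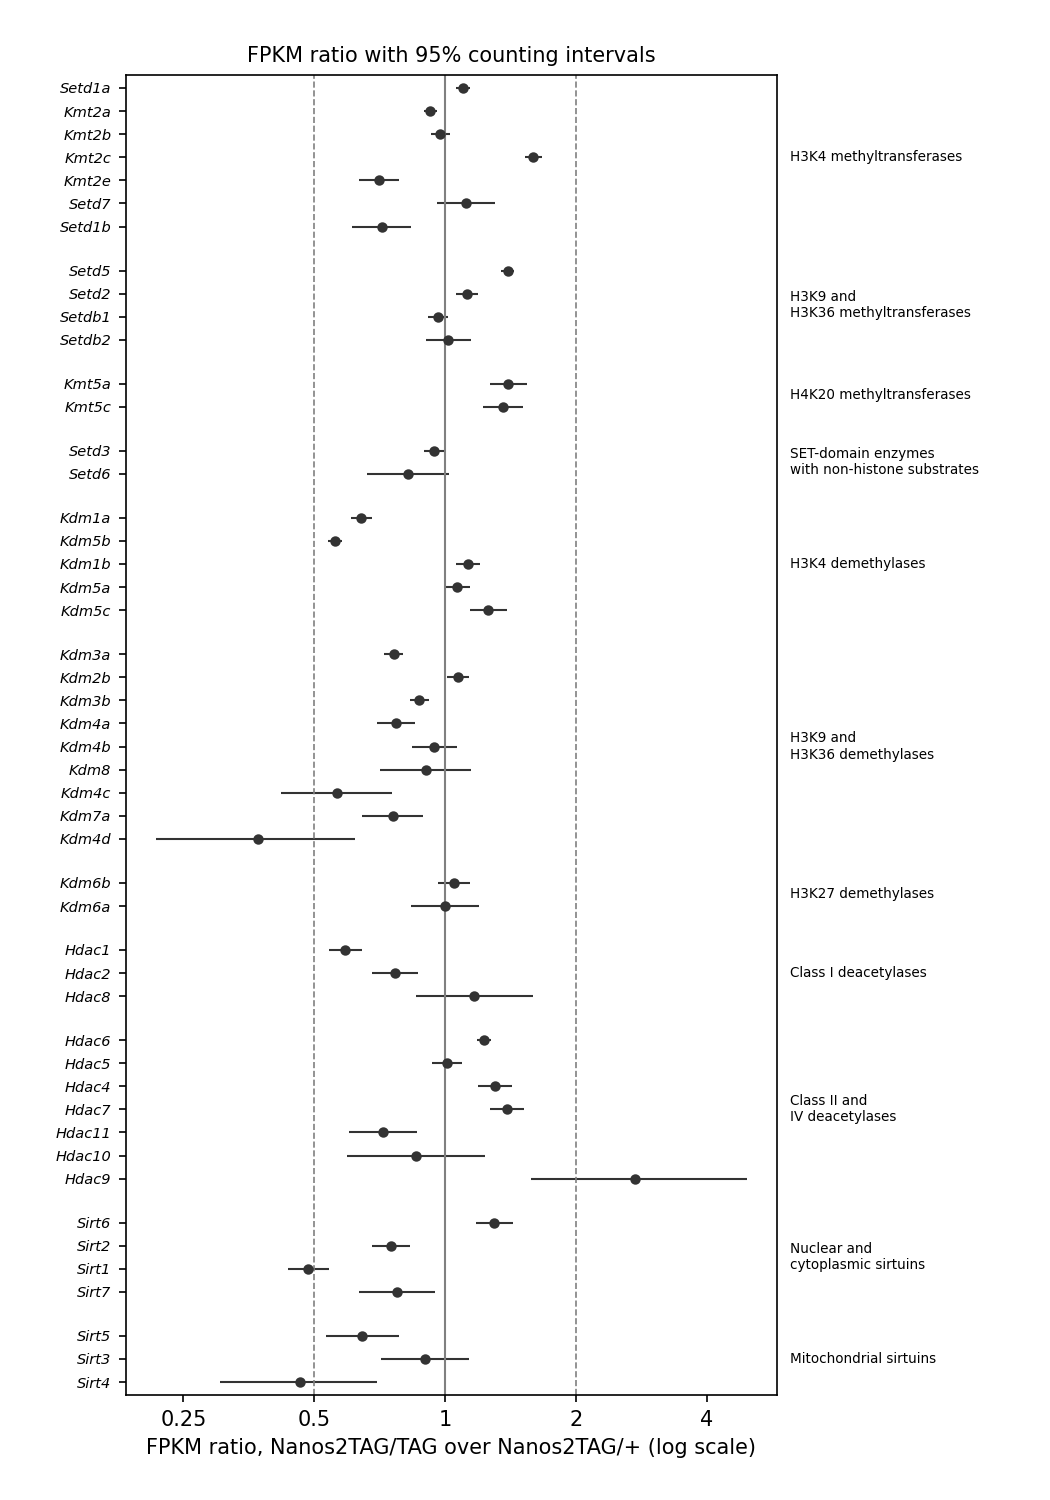
FPKM ratio of the *Nanos2*TAG/TAG over the *Nanos2*TAG/+ library (log scale) for 48 enzymes with 95% counting intervals as bars; the solid line marks 1 and the dashed lines 0.5 and 2. The H3K9 and H3K36 demethylases lie to the left of 1 except *Kdm2b*, and the intervals of *Hdac9*, *Kdm4d* and *Sirt4* are the widest.

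Half-lives of the chromatin enzyme mRNAs were spread around those of all transcripts. Their median was 202 and 226 min, against 224 and 226 min over all 5806 transcripts, and 18 and 15 of 29 were below the median of all. The shortest in the *Nanos2*TAG/+ line was *Kmt5a*, 63.1 min, and the shortest in the *Nanos2*TAG/TAG line was *Kdm7a*, 73.7 min. *Hdac6* had the longest half-life in both lines, 516 and 598 min. Half-lives were available mainly for the more abundant enzymes, which had a median FPKM of 63.9 over both libraries, against 13.4 for the 22 enzymes with an FPKM and no half-life. Those without one include *Kdm1a*, *Hdac1*, *Hdac2*, *Kdm3b*, *Sirt2* and *Sirt6*, whose decay was not analysed here, and *Sirt1* was the only sirtuin with a half-life.

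Across transcripts, the more abundant had the longer half-life. Spearman's rho between FPKM and half-life was 0.635 and 0.587 over the 26 enzymes, against 0.505 and 0.454 over 5152 transcripts, where both measures come from the same lines. When each enzyme was therefore compared with the transcripts in its own bin of FPKM (10 bins of equal size), the median difference from the median of the bin was -38 and 9.25 min. In both lines 12 of 26 (46.2%) were below the median of their bin, against 38.1% of all transcripts, and 8 (30.8%) were above it, against 38%.

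A group of 5 mRNAs was below the lower quartile of all half-lives (162 and 159 min) in both lines, against 15.6% of all transcripts, a share near the 17.2% of the enzymes. They code for enzymes of different classes. *Kmt2e*, an MLL family member that binds H3K4 trimethylation, had half-lives of 102 and 94.3 min. *Kdm7a*, a PHD finger and Jumonji demethylase, had 111 and 73.7 min, and *Hdac4* had 119 and 115 min. *Kdm5c* had 151 and 92.2 min, and *Sirt1* had 149 and 139 min. *Hdac4* and *Kmt2e* were also more than 100 min below the median of their FPKM bin in both lines. At the other end, 4 mRNAs were above the upper quartile (289 and 299.8 min) in both lines, 13.8% against 19.1% of all transcripts. These were *Hdac6*, *Setd3* with 448 and 474 min, *Hdac5* with 359 and 333 min and *Kdm2b* with 321 and 349.7 min. Class II deacetylases thus held both the longest-lived mRNA of the set and one of the shortest.

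Some sister genes differed in half-life and others were close, and pairs of unrelated genes were not compared. *Kdm5a* and *Kdm5b*, with 238 and 253 min for *Kdm5a* and 285 and 304 min for *Kdm5b*, were longer-lived than *Kdm5c* in both lines. *Setd1a* (253 and 282 min) was longer-lived than *Setd1b* (133 and 192 min), and it had the higher FPKM. *Kmt2a* and *Kmt2b* had near equal values, 207 and 219 min for *Kmt2a* and 202 and 220.3 min for *Kmt2b*. *Kmt2c* had 255 and 264 min, and *Kmt2d* had 200.0 and 294 min, so that their order turned round between the lines. Of the H3K27 demethylases, *Kdm6b* alone had a half-life, 204 and 221 min. *Setdb1* had 247 and 260.0 min, and *Setd6* 274 and 226 min.

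**Figure D3:**
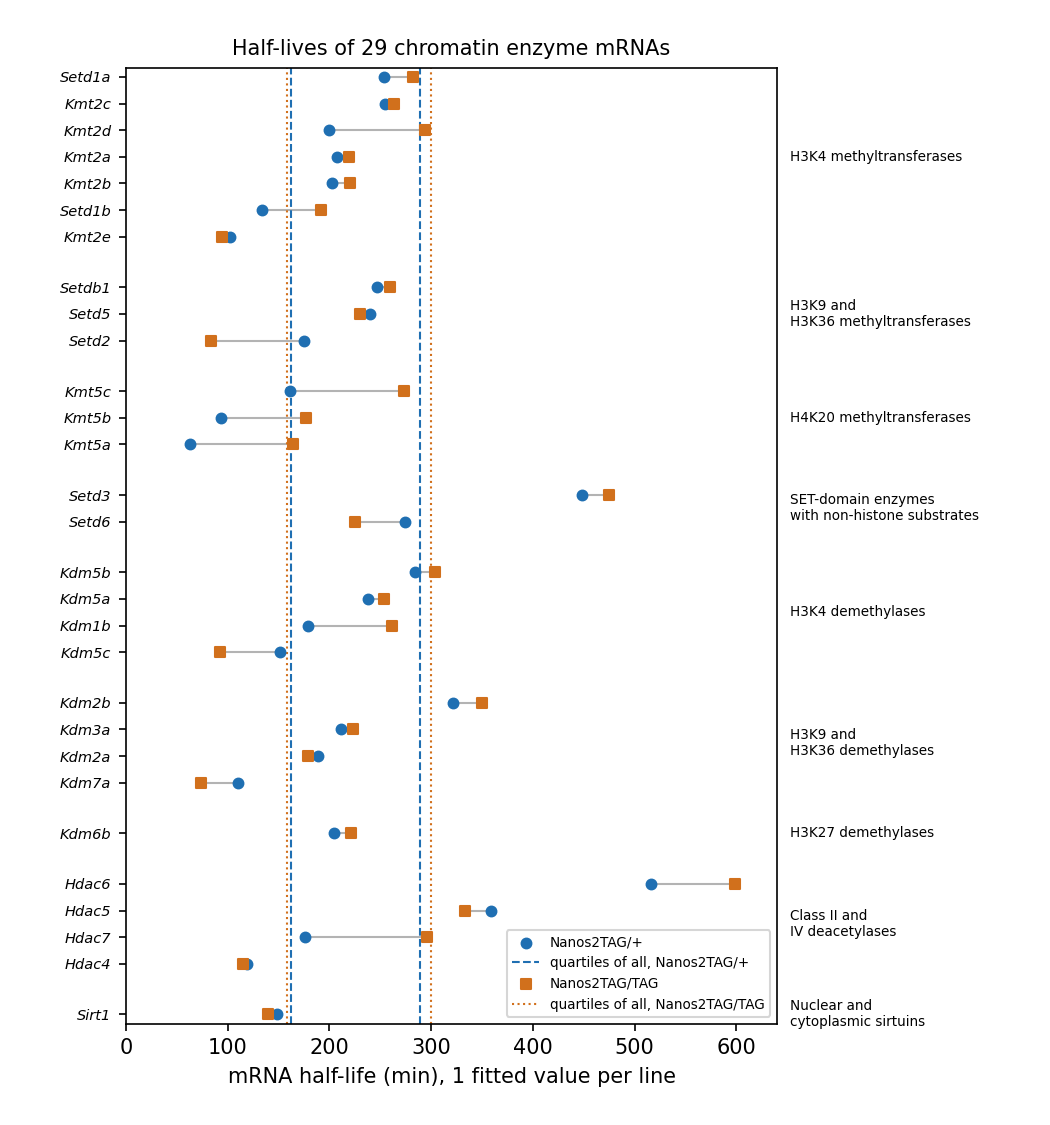
Half-life in minutes of 29 enzyme mRNAs in the *Nanos2*TAG/+ (circles) and *Nanos2*TAG/TAG (squares) lines, by class; each point is 1 fitted value and the vertical lines are the lower and upper quartiles of all 5806 transcripts in each line. The 3 H4K20 methyltransferases are all longer-lived in the *Nanos2*TAG/TAG line, and *Setd2* is shorter-lived.

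Between the lines most half-lives of the enzymes were close. The median fold difference, in either direction, was 1.09 over the 29 enzymes and 1.2 over all transcripts, and the rank correlation of a line with the other (Spearman's rho) was 0.794 over the enzymes and 0.77 over all transcripts. A half-life at least 1.5-fold longer in the *Nanos2*TAG/TAG line was found for 4 of 29 enzymes, 13.8% against 10% of all transcripts. These were *Hdac7* and all 3 measured writers of H4K20 methylation. *Kmt5a* had 63.1 and 164 min, 2.6-fold longer. Its ratio of *Nanos2*TAG/TAG over *Nanos2*TAG/+ was at percentile 98.9 of all transcripts, a rank by direction in which shorter half-lives count as lower. *Kmt5b*, which like *Kmt5c* adds further methyl groups, had 93.8 and 177 min, 1.88-fold longer, and *Kmt5c* had 161 and 274 min, 1.7-fold longer. *Hdac7* had 176 and 296 min, 1.68-fold longer. In the *Nanos2*TAG/+ line all 3 H4K20 enzymes were below the lower quartile (162 min), as were 25% of all transcripts. In the *Nanos2*TAG/TAG line (quartile 159 min) none was. *Kmt5c* in the first line and *Kmt5a* in the second lay close to the quartile, in values without an error. The 3 are among the 4 called for their ratios, so this is no separate result.

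A half-life at least 1.5-fold shorter was found for 2 of 29, 6.9% against 10.7% of all transcripts. *Setd2* had 175 and 83.9 min, 2.09-fold shorter, and *Kdm5c* was 1.64-fold shorter. *Kdm7a*, at 1.5-fold shorter, lay just inside the limit before rounding and was not counted. Just inside it on the other side were *Kmt2d*, *Kdm1b* with 179 and 262 min, and *Setd1b*, with ratios of 1.47, 1.46 and 1.44.

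RNA level and half-life did not move together in every case. The 3 enzymes with a longer half-life and an FPKM in both lines (*Kmt5a*, *Kmt5c* and *Hdac7*) were also higher in FPKM in the *Nanos2*TAG/TAG library, by 1.4-, 1.36- and 1.39-fold. However, *Setd2* and *Kdm5c*, whose half-lives were shorter, were higher in FPKM too, by 1.12- and 1.26-fold. Of the 26, the 3 with the largest differences in RNA level had near equal half-lives. *Sirt1* was 2.06-fold lower with a half-life ratio of 0.938, *Kdm5b* was 1.79-fold lower with 1.07, and *Kmt2c* was 1.6-fold higher with 1.03. The libraries behind the measures differ, since RNA-seq used total RNA and SLAM-seq 3′ ends, and the relation was not tested.

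**Figure D4:**
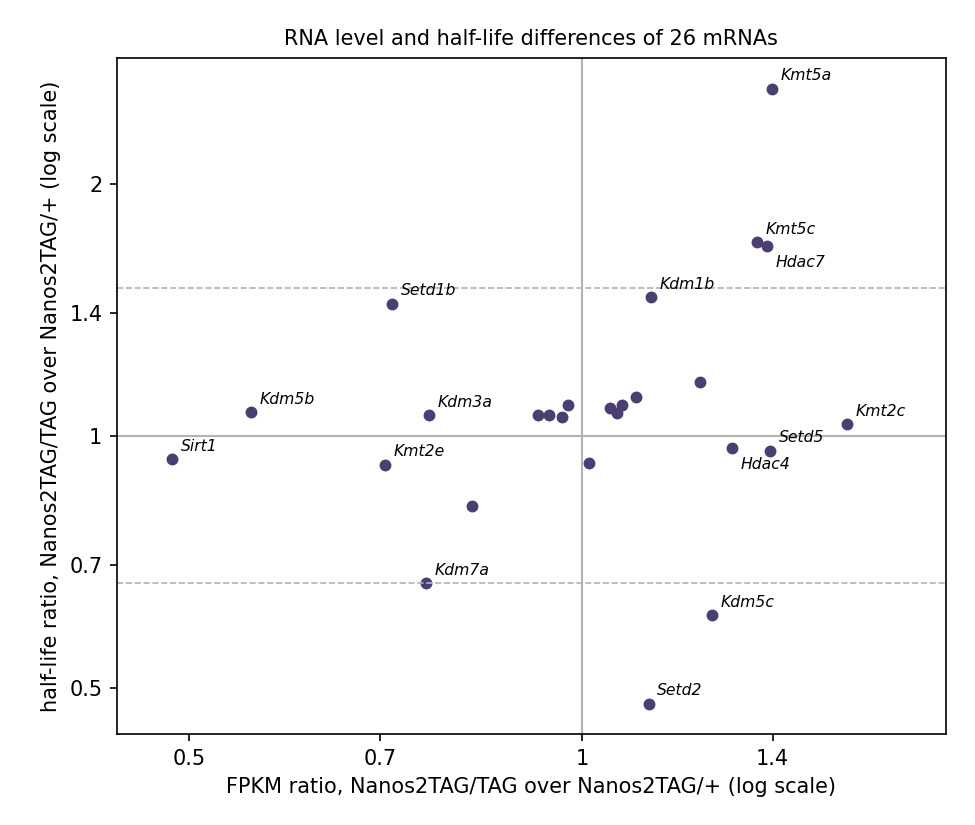
Half-life ratio against FPKM ratio (*Nanos2*TAG/TAG over *Nanos2*TAG/+, both on log scales) for the 26 enzymes with both values; solid lines mark 1, dashed lines half-life ratios of 0.667 and 1.5, and each point is 1 gene. *Kmt5a*, *Kmt5c* and *Hdac7* lie in the upper right corner, *Setd2* and *Kdm5c* in the lower right, and *Sirt1* and *Kdm5b* far to the left near a half-life ratio of 1.

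The study derived the motif AUKAAWU (K is G or U and W is A or U) for NANOS2. The 3′ UTRs of the enzymes were searched for it on the sense strand, in 1 principal transcript per gene (GENCODE M21, GRCm38). At least 1 match was found in 14 of 29 enzymes with a half-life, 48.3% against 41.7% of all transcripts with a half-life. Over all 51 enzymes, 20 held 39 matches, which is 0.5 per kb of 3′ UTR against 0.493 over 13151 genes. *Kdm7a* had 6 matches in 6588 bases, *Kdm5c* and *Setd7* had 4 each, and *Kdm5a* had 3. A match is a run of letters and no evidence of binding.

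All 5 mRNAs with half-lives below the lower quartile in both lines held a match, and none of the 4 above the upper quartile did. Over all transcripts the shares were 59.7% of 899 and 22.8% of 1100. The 3′ UTRs differ in length as well, with a median of 1631 bases in the 5 and 575 in the 4, against 1546 and 590.5 over all transcripts of the same kinds, and a longer 3′ UTR holds more matches. The match nearest to the stop codon is shown for the 5 short-lived mRNAs and for *Kmt5a*, whose half-life differed most between the lines, each with 11 bases on either side and the match in capitals, 5′ to 3′ on the mRNA.
Kmt2e: uacacuuccuuAUGAAAUgugcucuuaag
Kdm7a: ggauuugaugcAUUAAUUauuuuaaauua
Hdac4: uugauuuuuguAUGAAUUuuucacaaaaa
Kdm5c: uuuuauuuuaaAUGAAUUuuguugggguu
Sirt1: gccauuguuuaAUUAAAUaccuaucacug
Kmt5a: cucaaagggaaAUGAAUUuuuuuuuacac
These matches lie in the last exon of each gene, at chr5:23503246-23503252 (plus strand) for *Kmt2e*, chr6:39142634-39142640 (minus) for *Kdm7a*, chr1:91931816-91931822 (minus) for *Hdac4*, chrX:152273605-152273611 (plus) for *Kdm5c*, chr10:63319899-63319905 (minus) for *Sirt1* and chr5:124460765-124460771 (plus) for *Kmt5a*. The match of *Kmt5a* starts 67 bases after the stop codon, that of *Kmt2e* 199 bases, and that of *Hdac4* 1525 bases. *Kmt5b* and *Kmt5c*, whose half-lives also differed, held no match in the transcript searched, and neither did *Hdac7*, *Setd2* or *Hdac6*.

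The 14 enzymes with a match had a median half-life of 165 and 185 min, and the 15 without one had 247 and 264 min. In both lines the ranges overlapped. Over all transcripts the medians were 196 and 200 min with a match and 245 and 247 min without one. The median 3′ UTR was 2726 bases with a match and 643 without one in the enzymes, so that match and length cannot be told apart here.

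**Figure D5:**
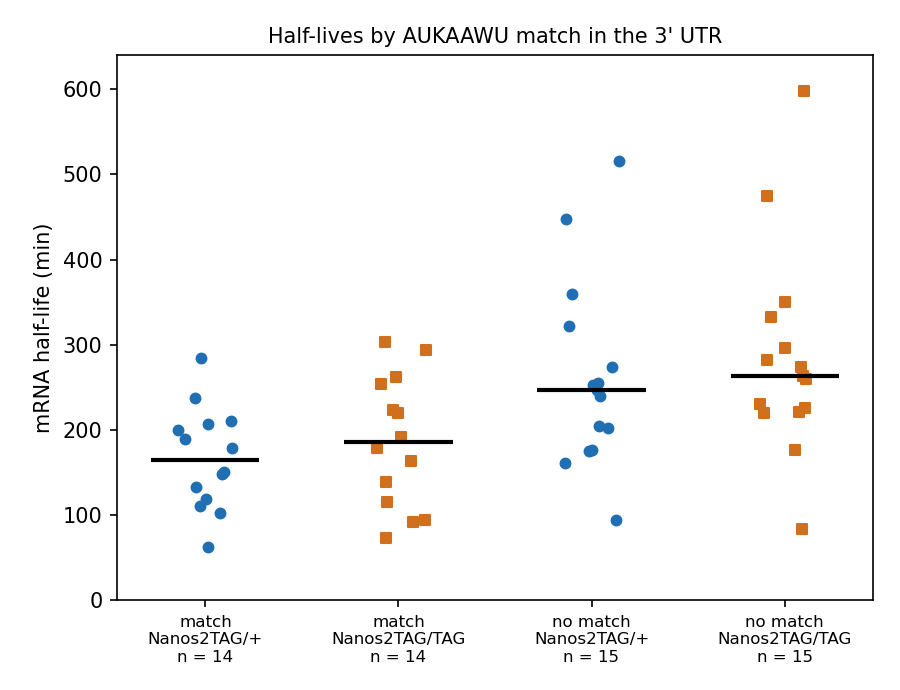
Half-life in minutes of enzyme mRNAs with (n = 14) and without (n = 15) an AUKAAWU match in the 3′ UTR, in the *Nanos2*TAG/+ (circles) and *Nanos2*TAG/TAG (squares) lines; each point is 1 mRNA, with sideways scatter for display only, and bars are medians (165, 185, 247 and 264 min from left to right). The groups overlap in both lines.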

How the data were processed

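RNA-seq values of 1 library per line and half-lives of both lines were analysed. FPKM values were made by the authors; the submitters' processing notes name kallisto and DESeq2, and the version and annotation are not given in the sources used here. The half-lives are deposited in minutes, without error or depth. Conversion rates from SlamDunk were fitted by the authors, after technical replicates were merged, to first-order decay. The columns were assigned to lines from the letters of their names (GG as *Nanos2*TAG/TAG, Gp as *Nanos2*TAG/+), and the half-life tables name the genotypes that the labels call EXP and CTL.

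Reads were recovered as FPKM times the mean transcript length of GENCODE M21, and were whole (within 0.01) for 100% of 13875 genes. FPKM was scaled by the authors to 10908790 and 11738620 reads. Log2 differences used a pseudocount of 0.1 and a mean FPKM of at least 1. Calls used 2-fold for FPKM and 1.5-fold for half-life, and 10 bins of mean FPKM. The principal transcript was chosen by the annotation's APPRIS tag where given. Named genes were the extremes of each class, the largest differences and the sister pairs. Genes, lists and rules were chosen with earlier results of these data known. Other pseudocounts, filters, folds, bins and centring were tried, and the principal transcript length was added after seeing the data. The recovery of reads, the fold calls and the intervals were also run on reads simulated with the same gene lengths and counting error alone. Such a run checks the steps and cannot show how far the deposited values follow that model. Analyses used Python 3.11.15, numpy 2.4.6, pandas 2.3.3, scipy 1.17.1 and matplotlib 3.10.9. Related genes, such as *Kdm5c* and *Kdm6a* and their Y-linked relatives, may share some reads that quantification may have split. 1 item is not reported here.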

Additional observations from a re-analysis of the deposited data

How the results depend on the processing

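With 1 library or 1 fitted half-life per line, no replicate could be left out. No paired analysis was possible because the half-lives are fitted over all libraries of a line and the RNA-seq has 1 library per line. Of 51 alternative values of the counts and medians, 35 stayed within 1.5 times the count or within the spread between lines. The median FPKM was 33.9 and 44.2 without the enzymes of non-histone substrates and the mitochondrial sirtuins, and 17.8 and 18 on principal transcript length. In brackets is the share of all genes or transcripts under the same setting. Enzymes higher by the FPKM fold numbered 1 of 48 without a filter (13.5%) and 1 of 47 at 1.5-fold (20.8%), against 0 (11.7%). Those lower numbered 0 of 47 with a pseudocount of 1 (6.34%) and 1 of 42 at a mean FPKM of at least 5 (5.65%). At 1.5-fold 8 of 47 were lower (18.6%), against 3 (8.67%). Longer half-lives numbered 7 of 29 at a lower limit (22.1%) and 1 of 29 at 2-fold (3.05%), against 4 (10%). Shorter ones numbered 1 of 29 at 2-fold (3.67%), against 2 (10.7%). Below the lower quartile were 9 of 29 in the *Nanos2*TAG/+ line alone (25%) and 2 in the lowest 10% of both (4.58%), against 5 (15.6%). In the highest 10% of both were 2 (7.56%), against 4 above the upper quartile (19.1%). The stricter and looser limits move these counts by construction, and for the other settings the cause was not tested. The order of the lines in median FPKM (31.6 and 29.7) turned round without the enzymes of non-histone substrates and the mitochondrial sirtuins. It also turned round on principal transcript length. With the *Nanos2*TAG/TAG line alone 12 of 26 enzymes were below and 14 above the median of their FPKM bin. With the *Nanos2*TAG/+ line alone the numbers were 18 and 8. In either line alone 49.9% of all transcripts lay on each side. In both lines 12 enzymes were below and 8 above, against 38.1% and 38% of all transcripts. A single line is a looser limit than both, so its counts cannot be smaller by construction. Centring added *Kdm7a* to the shorter half-lives, and few reads limit *Hdac9*, *Kdm4d*, *Sirt4* and *Kdm4c*.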

Other observations

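Partner subunits of these enzymes were described from lists chosen by known complex membership. The mRNAs of 8 COMPASS subunits, which serve part of the H3K4 methyltransferases, had a median half-life of 295 and 307 min (*Nanos2*TAG/+ line first). The 7 genes of the H3K4 methyltransferase class with a half-life had a median of 202 and 220 min. The subunits also had the higher median FPKM, 116 and 90.8 over 5 genes, against 52.1 and 76.9 over the 7 of the class with an FPKM. The genes behind these medians differ in part, as *Kmt2d* had no FPKM and *Setd7* no half-life. Relative to the median of their FPKM bins, 5 subunits were at a median of -0.633 and 23.8 min. For 6 of the methyltransferases it was -39 and -27.8 min. The part of RNA level in this contrast was not tested. *Ash2l* had 498 and 538 min and *Wdr5* 339 and 400.4 min, and 4 of the 8 were above the upper quartile of all transcripts in both lines (19.1% of all).

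Other lysine methyltransferases outside the KMT and SETD names had a median FPKM of 71.0 and 62.0 over 14 genes. *Ehmt2* (G9a), an H3K9 methyltransferase, had half-lives of 603 and 1007 min, longer than any of the 29 enzymes. *Dot1l*, the H3K79 methyltransferase, had 209.6 and 122 min, and *Nsd3* 96.9 and 204 min. Of 9 histone acetyltransferases with an FPKM, 4 were higher and 5 lower in the *Nanos2*TAG/TAG library, where 7028 of all 13904 genes were higher. *Crebbp* was at FPKM 328 and 327.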
